A study of Arabidopsis thaliana with 8 samples.

Results

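The cytochrome P450 genes of Arabidopsis rosette leaves were followed through 14 probe sets, each the set of short oligonucleotides that reads 1 transcript on the ATH1 array. A probe set was taken when the platform's annotation gave it exactly 1 gene whose symbol starts with CYP, 2 or 3 digits and a letter, which held for 23 of the 22810 probe sets. On 2 or more of the 8 arrays it also had to be brighter than that array's 40th percentile. Of the 23, 14 passed that filter, out of 14947 probe sets that were tested in all. CYP71B genes made up 12 of the 14, and CYP78A9 and CYP84A4 were the other two. Each gene has 1 probe set here, and P450 genes whose probe sets that annotation leaves without a symbol were not analysed here.

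Cytochromes P450 are haem enzymes, mostly anchored in the endoplasmic reticulum, that use oxygen and electrons from NADPH to add oxygen to small molecules. In plants they make lignin precursors, hormones, membrane sterols, glucosinolates and defence compounds, and they also break down foreign chemicals. Names give the family by number and the subfamily by letter, and CYP71B is a large Arabidopsis subfamily whose genes often lie side by side. Its best known enzyme, CYP71B15 (PAD3), makes the defence compound camalexin, while most of the members measured here have no role assigned below because none is certain.

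There were 4 lines with 2 arrays each, all from Columbia plants. The flu tAPX line joined the flu mutation to overexpression of the thylakoid-bound ascorbate peroxidase. The flu line carried the T-DNA allele SAIL_136_E05, the tAPX line was the single overexpressor line 14/2, and the wild type (WT) carried neither. FLU limits the synthesis of protochlorophyllide in the dark, so that flu plants moved from darkness release singlet oxygen when light returns, and tAPX removes hydrogen peroxide at the thylakoid. All plants were kept in unbroken light for 3 weeks, then had 8 h of darkness and 2 h of renewed light, and each array held RNA pooled over 3 of 6 experiments with at least 10 plants of a line in each. Free-text descriptions of some samples name another accession, line or harvest time than the titles, genotype entries and design text do. The titles, genotype entries and design text were followed.

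The tAPX probe set gave signals of 22703 and 23222 in flu tAPX, against 1656 and 1729 in flu, and of 22960 and 22043 in tAPX, against 2558 and 3115 in WT, so it followed the labels of the overexpressor. FLU has no probe set named in the annotation used and was not analysed here. Median signals per array lay between 153 and 166. Of 17 mesophyll markers, 2 had a named and tested probe set. RCA, Rubisco activase, ranged from 24891 to 31736 and passed no test. LHCB4.2, an antenna protein of photosystem II, passed the test as lower in both responses to flu, with log2 changes of -0.94 ± 0.15 (flu tAPX against tAPX) and -0.75 ± 0.15 (flu against WT). The root marker PYK10 stood between 12.6 and 113 and the guard cell marker FAMA between 238 and 380, neither passing a test. No marker of epidermis, vasculature or seed had a named probe set, so the part of other cell types in the P450 values was not tested. In leaf RNA, fewer cells of a type cannot be told apart from less RNA per cell.

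**Figure D1:**
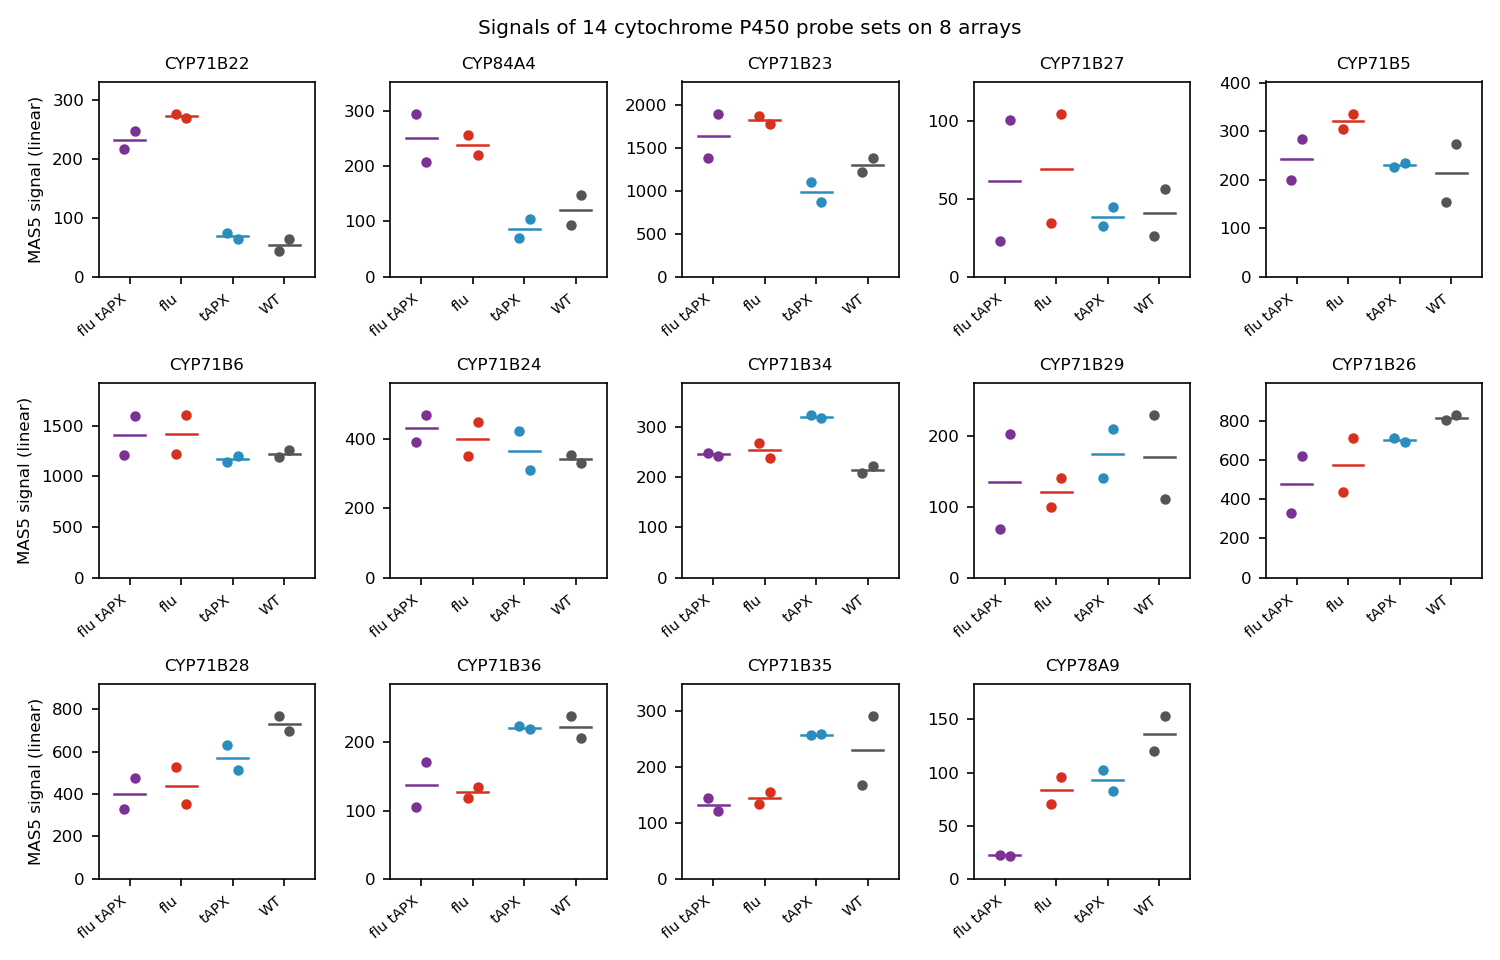
Each panel is 1 P450 probe set. The vertical axis is the linear MAS5 signal from 0, dots are the 2 arrays of each line and bars are their means. CYP71B22, CYP84A4 and CYP71B23 stand higher in both lines with flu than in both lines without it, and CYP71B35 and CYP71B36 lower.

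With the flu mutation, CYP71B22 was called higher whether or not extra tAPX was present, though it passed the filter only through arrays with the mutation. In plants with extra tAPX, CYP84A4 and CYP71B23 were also called higher and CYP78A9 and CYP71B35 lower. Without extra tAPX these 4 missed the threshold, and each of their calls with it was lost in some alternative analyses. The 5 calls with extra tAPX are 35.7% of the members, close to the 33.5% of all tested probe sets. Whether the responses with and without extra tAPX differ was tested separately, and no member passed. Changes are differences on the log2(signal + 16) scale, which understates the change of dim probe sets, and each was tested in limma with p-values adjusted over all tested probe sets at a threshold of 0.05. Flu against WT and flu tAPX against tAPX share no array, and are called the responses to flu without and with extra tAPX.

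CYP71B22 had signals of 218 and 248 in flu tAPX, 277 and 271 in flu, 73.6 and 63.3 in tAPX, and 43.0 and 63.6 in WT. The 4 arrays with the mutation stood above the 4 without it by a wide gap. The log2 change was 1.56 ± 0.30 (SE) for flu tAPX against tAPX, with an adjusted p of 0.00279, and 2.08 ± 0.30 for flu against WT, with an adjusted p of 0.000728. This was the only P450 called in both responses. Its signals in tAPX and WT lay below the 40th percentile of their arrays, so it passed the filter only through arrays with the mutation. Its membership is therefore not independent of its response, and the size of the change is uncertain.

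CYP84A4 converts a phenylpropanoid aldehyde to its catechol form on the way to arabidopyrones, Arabidopsis compounds with a pyrone ring. Its signals were 295 and 208 in flu tAPX, 256 and 220 in flu, 69.3 and 105 in tAPX, and 93.03 and 148 in WT. Again the arrays with the mutation stood above all others. The log2 change was 1.38 ± 0.32 for flu tAPX against tAPX (adjusted p 0.0084) and 0.92 ± 0.32 for flu against WT (adjusted p 0.0629), so it passed the test with extra tAPX and missed it without. Without tAPX replicate 1 the first value was 1.13 (adjusted p 0.0777), and with arrays scaled on poly-A controls 0.73 (adjusted p 0.0801), so both end its call.

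CYP71B23, the gene next to CYP71B22 on the chromosome, was one of the brighter probe sets. Its signals were 1384 and 1900 in flu tAPX, 1877 and 1789 in flu, 1105 and 868 in tAPX, and 1226 and 1383 in WT. The lowest flu tAPX array lay only just above the highest WT array. It rose by 0.72 ± 0.20 in flu tAPX against tAPX (adjusted p 0.0205), and its change in flu against WT was 0.49 ± 0.20 (adjusted p 0.108). The call with extra tAPX was lost without tAPX replicate 2 (0.55, adjusted p 0.184), without flu tAPX replicate 2 (0.49, adjusted p 0.0946), with only the 4 arrays compared (adjusted p 0.0571) and with poly-A scaling (0.07, adjusted p 0.826).

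CYP78A9 belongs to a family that promotes the growth of organs, and extra activity of it enlarges fruits and seeds. Its signals were 22.5 and 21.4 in flu tAPX, 70.2 and 96.1 in flu, 103 and 82.5 in tAPX, and 120 and 153 in WT. Both flu tAPX arrays were the dimmest, well under the 40th percentile of their own arrays, at 84.5 and 95.6. Flu tAPX fell by 1.51 ± 0.41 against tAPX (adjusted p 0.0167), and the value moved to -2.02 and -0.86 with pseudocounts of 1 and 64. The call was lost without tAPX replicate 1 (adjusted p 0.129) or tAPX replicate 2 (adjusted p 0.0743), and with only the 4 arrays compared (adjusted p 0.0656). In flu against WT the change was -0.63 ± 0.41 (adjusted p 0.289).

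CYP71B35 had signals of 144 and 121 in flu tAPX, 134 and 156 in flu, 256 and 259 in tAPX, and 168 and 291 in WT. All arrays with the mutation stood below all others, though the lower WT array lay close to the higher flu array. It fell by 0.89 ± 0.29 in flu tAPX against tAPX (adjusted p 0.0382), and its change in flu against WT was -0.57 ± 0.29 (adjusted p 0.185). The call with extra tAPX was lost without tAPX replicate 1 (adjusted p 0.153), tAPX replicate 2 (adjusted p 0.165), flu tAPX replicate 2 (adjusted p 0.113) or flu replicate 2 (adjusted p 0.0504), and with no filter (adjusted p 0.0854).

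CYP71B36, the next gene after CYP71B35, had signals of 105 and 171 in flu tAPX, 118 and 135 in flu, 224 and 219 in tAPX, and 239 and 206 in WT. Its arrays separated in the same way. Its changes of -0.66 ± 0.28 (flu tAPX against tAPX, adjusted p 0.0977) and -0.74 ± 0.28 (flu against WT, adjusted p 0.0833) both missed the threshold. Without flu tAPX replicate 2 the first was -0.98 (adjusted p 0.0296, called), and without flu tAPX replicate 1 it was -0.34.

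CYP71B28 had signals of 327 and 474 in flu tAPX, 525 and 354 in flu, 629 and 514 in tAPX, and 768 and 696 in WT. Within each pair of lines the arrays with the mutation were the lower ones, but the highest flu array was above the lowest tAPX array. Its change was -0.51 ± 0.25 in flu tAPX against tAPX (adjusted p 0.144) and -0.74 ± 0.25 in flu against WT (adjusted p 0.0565). The change in flu against WT was called in 6 of 17 alternatives, at -1.01 without flu replicate 1 (adjusted p 0.0423) and with only the 4 arrays compared (adjusted p 0.0393) among them, and was -0.47 without flu replicate 2. Without flu tAPX replicate 1 or flu tAPX replicate 2 the change in flu tAPX against tAPX was -0.25 or -0.77, neither called.

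CYP71B26 had signals of 331 and 618 in flu tAPX, 434 and 710 in flu, 711.7 and 692 in tAPX, and 801 and 828 in WT. The second array was brighter than the first in both lines with the mutation, by 0.87 and 0.69 on the log2 scale in flu tAPX and flu, against differences of under 0.05 in tAPX and WT. The changes were -0.61 ± 0.30 and -0.54 ± 0.30 (flu tAPX against tAPX and flu against WT), with adjusted p of 0.144 and 0.219. Both rest on which array is kept: without flu tAPX replicate 1 or 2 the first was -0.18 or -1.05 (the second of these called, adjusted p 0.0151), and without flu replicate 1 or 2 the other was -0.20 or -0.89.

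CYP71B6 takes part in turning indole acetonitrile into indole carboxylic acid, and was a bright probe set that passed no test. Its signals were 1216 and 1600 in flu tAPX, 1225 and 1605 in flu, 1139 and 1197 in tAPX, and 1188 and 1257 in WT. The first array of each line with the mutation lay within the WT range. Its change of 0.25 ± 0.20 in flu tAPX against tAPX had a 95% interval of -0.19 to 0.69.

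CYP71B34 moved in opposite directions in the pairs of lines. It had 249 and 242 in flu tAPX, against 323 and 316 in tAPX, and 268 and 239 in flu, against 208 and 221 in WT. Both flu tAPX arrays were thus below both tAPX arrays, while both flu arrays were above both WT arrays. Its changes were -0.36 ± 0.20 (adjusted p 0.201) and 0.22 ± 0.20 (adjusted p 0.465), and the difference between them was -0.58 ± 0.29 (adjusted p 0.732), which passed no test.

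The remaining 4 members overlapped between lines and passed no test. CYP71B24, in the same run of genes as CYP71B22, had 393 and 470 in flu tAPX, 353 and 449 in flu, 423 and 309.5 in tAPX, and 355 and 332 in WT, with changes of 0.24 ± 0.23 (flu tAPX against tAPX) and 0.21 ± 0.23 (flu against WT). CYP71B5 had 199.6 and 284 in flu tAPX, 305 and 335 in flu, 226 and 233 in tAPX, and 154 and 274 in WT. Its flu arrays were both above its WT arrays, but its flu tAPX arrays lay on either side of its tAPX arrays, with changes of 0.05 ± 0.29 (flu tAPX against tAPX) and 0.60 ± 0.29 (flu against WT, adjusted p 0.163). CYP71B29 had 69.1 and 202 in flu tAPX, 99.6 and 141 in flu, 141 and 209 in tAPX, and 229 and 110 in WT, so the arrays of 1 line differed more than the lines did. CYP71B27, which the gene table lists as a transcribed pseudogene, was dim in every line, with 22.6 and 100.2 in flu tAPX, 34.2 and 104 in flu, 32.2 and 44.99 in tAPX, and 25.9 and 56.3 in WT. It passed the filter only through the second array of flu tAPX and of flu.

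**Figure D2:**
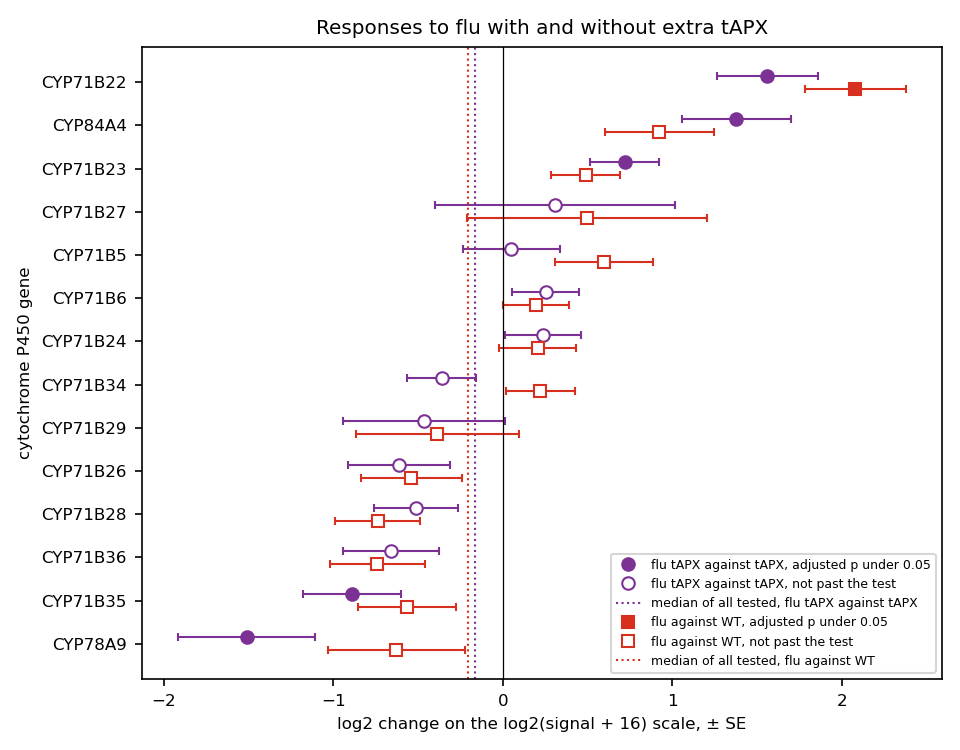
The horizontal axis is the log2 change, with bars of 1 SE, for flu tAPX against tAPX (circles) and flu against WT (squares), and filled symbols passed the test. Dotted lines are the medians of all tested probe sets. CYP71B22 alone is filled in both, and CYP71B34 alone lies on opposite sides of 0.

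In flu tAPX against tAPX, 3 of the 14 members were called higher and 2 lower, where 15% and 18.5% of all tested probe sets were called so, and 33.5% in either direction. The members' 5 calls, or 35.7%, are close to that background. In flu against WT, 1 member was called higher and 0 lower, where 11.4% and 12.5% of all were, and 23.9% in either direction. At an unadjusted limma p under 0.05 there were 5 members (35.7%), close to the 37% of all tested probe sets. Without either flu tAPX array, which changes the pooled spread, flu against WT called more members and more of all tested probe sets. Called in the same direction in both responses were 1 member higher and 0 lower, against 10.7% and 9.18% of all. Without either tAPX array, flu tAPX against tAPX called fewer members and fewer of all tested probe sets. When each array was instead scaled on the 24 poly-A control probe sets, flu tAPX against tAPX gave 1 higher and 6 lower. In that run 8956 of the 14947 tested probe sets were called in either direction. Under that scaling the median of all tested probe sets there was -0.81, beside -0.16 as deposited.

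The median change over the members was -0.16 in flu tAPX against tAPX, equal to the -0.16 of all tested probe sets, and 0.20 in flu against WT, where all had -0.20. The sign was shared between the responses by 13 of 14 members (92.9%), against 79.9% of all tested probe sets, and CYP71B34 was the exception. With poly-A scaling it was shared by 9 of 14, against 77% of all, so this count depends on the scaling. Of the 12 CYP71 members, 6 lay above 0 and 6 below in flu tAPX against tAPX, where 40.6% of all tested probe sets lay above 0, and with poly-A scaling 2 lay above and 10 below, where 18% of all lay above. In flu against WT 7 lay above and 5 below under both scalings, where 36.2% of all lay above 0 as deposited. The CYP78 and CYP84 families had 1 member each, so a family and its gene cannot be told apart there.

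A mean of both responses, added after the values were seen, uses all 8 arrays for 1 value per gene. It called 3 members higher and 5 lower, where 17.1% and 27.2% of all tested probe sets were called so. The higher ones were CYP71B22 (1.82 ± 0.21), CYP84A4 (1.15 ± 0.23) and CYP71B23 (0.60 ± 0.14). The lower ones were CYP78A9 (-1.07 ± 0.29), CYP71B35 (-0.73 ± 0.20), CYP71B36 (-0.70 ± 0.20), CYP71B28 (-0.63 ± 0.18) and CYP71B26 (-0.58 ± 0.21). CYP71B23 lost its call with poly-A scaling (0.30, adjusted p 0.185). CYP71B26 was close to the threshold, at an adjusted p of 0.049, and lost its call in 10 of 16 alternatives, with changes between -0.88 and -0.36. Without tAPX replicate 1, tAPX replicate 2 or WT replicate 1 the mean called fewer members, and fewer of all tested probe sets too. All 4 arrays with the mutation stood above the other 4 for 3 members and below them for 2, where 16.7% and 26% of all tested probe sets were so placed.

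**Figure D3:**
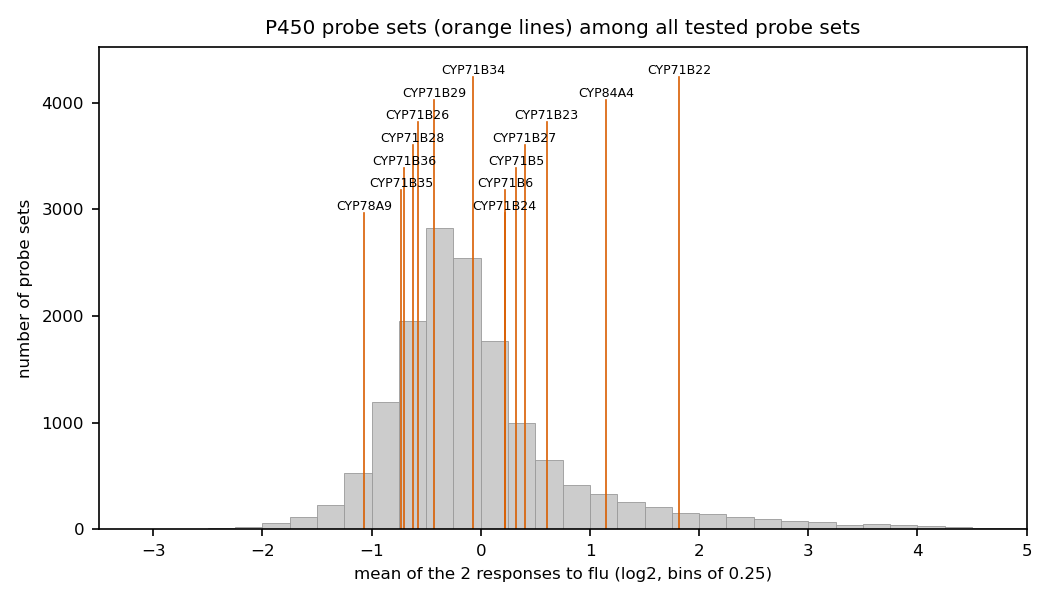
Grey bars count all tested probe sets by the mean of both responses to flu (log2, horizontal axis), and each orange line is 1 P450, with line height set only for legibility. The 14 lines run from CYP78A9 at -1.07 to CYP71B22 at 1.82, on both sides of the median of all probe sets at -0.20.

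Overexpression of tAPX was not followed by a called change in any of the 14 members. The only probe set called in flu tAPX against flu or in tAPX against WT was that of tAPX itself. In flu tAPX against flu, limma called 0 members and 0.00669% of all tested probe sets, and at an unadjusted p under 0.05 there was 1 member (7.14%), beside 5.53% of all. That member was CYP78A9, at -1.37 ± 0.41 with an adjusted p of 0.87. For CYP71B22 the difference was -0.22 with a 95% interval of -0.88 to 0.44, and for CYP84A4 it was 0.06 with an interval of -0.66 to 0.77. In tAPX against WT, 0 members and again 0.00669% of all were called, and at an unadjusted p under 0.05 there was 1 member (7.14%), beside 3.87% of all. That member was CYP71B34, at 0.54 ± 0.20 with an adjusted p of 0.98. The difference between the responses to flu with and without extra tAPX was called in limma for 0 members and for 0% of all tested probe sets. At an unadjusted p under 0.05 there were 0 members, beside 6.9% of all. For CYP78A9 it was -0.88 ± 0.57 (adjusted p 0.77), a size that depends on the pseudocount because its flu tAPX signals were so dim.

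Of the 14 members, 7 lie together on chromosome 3. In the TAIR10.1 gene table a run of 20 protein-coding genes from CYP71B16 (AT3G26150) to CYP71B37 (AT3G26330) holds 16 P450 genes, of which 11 had a named probe set and 7 passed the filter. In chromosomal order, CYP71B22, CYP71B23 and CYP71B24 had positive changes in both responses. Further along, CYP71B26, CYP71B35 and CYP71B36 had negative ones, with CYP71B34 of mixed sign among them. Among these genes only CYP71B22 was called in both responses. CYP71B24 turned to -0.41 in flu tAPX against tAPX under poly-A scaling. Of all tested probe sets, 79.9% shared their sign between the responses, and no pattern along the chromosome was tested. CYP71B27, CYP71B28 and CYP71B29 lie together on chromosome 1 (AT1G13070 to AT1G13100). CYP71B6 (AT2G24180) is on chromosome 2, CYP71B5 (AT3G53280) and CYP78A9 (AT3G61880) are elsewhere on chromosome 3, and CYP84A4 (AT5G04330) is on chromosome 5.

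Adjacent members were set side by side, after the values were seen, by the difference in their mean response. It was 1.22 for CYP71B22 minus CYP71B23, 0.66 for CYP71B34 minus CYP71B35, -0.51 for CYP71B26 minus CYP71B34, -0.20 for CYP71B28 minus CYP71B29 and -0.03 for CYP71B35 minus CYP71B36. These are descriptions. A two-sided exact permutation test over the 70 splits of the 8 arrays has a smallest p of 0.0286, and after adjustment over 5 pairs it could pass only if at least 3 pairs reached that p, which did not happen, so it does not settle whether any pair differs. Whether transcripts of related CYP71B genes bind to each other's probes was not tested, since probe sequences were not used here.

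**Figure D4:**
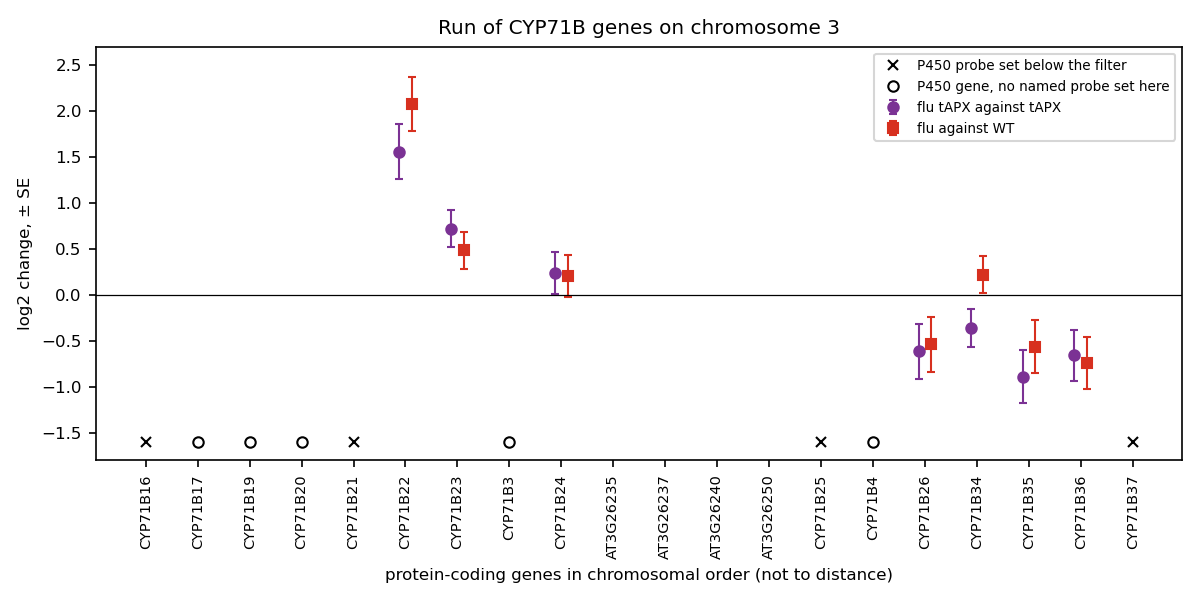
Genes of the chromosome 3 run stand in chromosomal order on the horizontal axis, not to distance, and the vertical axis is the log2 change with bars of 1 SE for flu tAPX against tAPX (circles) and flu against WT (squares). Crosses are P450 probe sets below the filter, open circles P450 genes with no named probe set. CYP71B22 to CYP71B24 lie above 0 and CYP71B26, CYP71B35 and CYP71B36 below it, and of these only CYP71B22 was called in both responses.

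The 9 P450 probe sets below the filter were CYP51G2, CYP71B16, CYP71B21, CYP71B25, CYP71B30P, CYP71B31, CYP71B37, CYP71B38 and CYP79A2. CYP79A2 makes the aldoxime that leads to benzylglucosinolate, CYP71B31 acts on the floral alcohol linalool, and CYP51G2 is listed as a pseudogene. Their signals lay between 2.73 and 99.9, where the 40th percentile was 78.4 to 95.6. CYP71B25 came nearest, above the percentile on 1 array, and the others on 0. Just inside the filter were CYP71B27 on 2 arrays, CYP71B22 on 4, CYP78A9 on 5, CYP84A4 on 6 and CYP71B29 on 7. CYP71B22 passed through the 4 arrays with the mutation, so its place among the members is not independent of its response.

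Genes that work beside P450s were taken from 10 lists of 175 entries, chosen with earlier results of these data known. Of these, 14 had a named probe set and 12 passed the filter, and most of the pathways were therefore hardly measured. In flu tAPX against tAPX 7 of the 12 were called higher and 0 lower (15% and 18.5% of all tested probe sets), and in flu against WT 8 and 0 (11.4% and 12.5%). Of the 12, 4 (UGT73B4, UGT73B5, GSTU25 and UGT71B6) passed the filter only through arrays with the mutation. GSTU22 had only 1 array without the mutation above the percentile, and would not have passed on those arrays alone. The place of these genes is therefore not independent of their response. The counts are given as a description and support nothing about the lists. No list of electron-donating P450 partners, of brassinosteroid and sterol synthesis or of cutin, suberin and wax synthesis had a tested gene.

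The xenobiotic list held 5 tested genes, whose enzymes attach glutathione or sugar to oxygenated or foreign molecules. Of these, 4 were called higher in both responses, as were 10.7% of all tested probe sets. None of the 4 would have passed the filter on the arrays without the mutation alone, so this count supports nothing about the list. UGT73B4, a glucosyltransferase, had signals of 1542 and 1263 in flu tAPX and 909 and 860 in flu, against 8.73 and 6.77 in tAPX and 12.8 and 11.3 in WT. Its signals without the mutation lay far below the 40th percentile of their arrays, so no size of change is given. UGT73B5 ranged from 1618 to 2902 over the arrays with the mutation and from 47.9 to 67.3 over the others, and the glutathione transferase GSTU25 from 944 to 2092 and from 8.13 to 55.3, again with the others below that percentile. GSTU22 had signals from 184 to 335 with the mutation and from 27.8 to 78.8 without it, only 1 array without it being above the percentile. GSTU20, of the same class, had log2 changes of -0.43 and 0.01 (flu tAPX against tAPX and flu against WT) and was not called.

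On the jasmonate list OPCL1, a ligase of precursor synthesis, rose by 3.17 and 2.97 (flu tAPX against tAPX and flu against WT), and JMT, which methylates jasmonate, rose by 1.71 and 1.46. UGT71B6, which attaches glucose to abscisic acid, was called higher in both, with signals from 171 to 197 over the arrays with the mutation and from 15.9 to 60.7, below the percentile, over the others. UGT74B1, a glucosyltransferase of glucosinolate synthesis, rose by 0.51 in flu against WT (adjusted p 0.0395) and had 0.37 in flu tAPX against tAPX. BCAT4 of methionine-derived glucosinolate synthesis, HCT of the lignin route upstream of many phenylpropanoids, and LUP5 of triterpene synthesis passed no test, with changes between -0.37 and 0.63.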

How the data were processed

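Leaf RNA of 4 lines, 2 arrays each, was measured on Affymetrix ATH1 arrays. The deposited values are linear probe set intensities (signals) made with MAS5 (version not stated), per the submitters' processing notes. MAS5 scales each array on its own mean. Having 2 arrays per line limits the precision, and p-values measure the spread between pools. Lines were read from sample titles.

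Log2(signal + 16) was analysed without renormalizing. Controls, and probe sets not above the 40th percentile of their array on 2 of 8 arrays, were left out. All arrays entered 1 model in limma 3.58.1 (R 4.3.3) with a variance trend and 4 residual degrees of freedom. Benjamini-Hochberg adjusted p-values covered 14947 probe sets. Simulated arrays with few changed probe sets served to check the code only, and not the scaling of these arrays. Genes named are all members, with values in full for those called, for CYP84A4 and for the brightest uncalled ones, and pathway genes that passed in a response to flu or were tested and did not. The members and lists were chosen with earlier results of these data known. The mean of both responses and the neighbour comparison were added after the values were seen. Alternatives covered the pseudocount, filter, scaling, variance trend, replicate block, arrays fitted and each replicate left out. A planned search of promoters was not run, because no promoter sequence was used here.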

Additional observations from a re-analysis of the deposited data

Results flagged for a closer look

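CYP71B34 drew attention because its responses to flu pointed in opposite directions: both flu tAPX arrays lay below both tAPX arrays, and both flu arrays lay above both WT arrays. The difference between the responses, with extra tAPX minus without, was -0.58 ± 0.29 on the log2 scale. In limma it did not pass the threshold (adjusted p 0.732).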

How the results depend on the processing

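The number of P450 members called in flu tAPX against tAPX was 5. It was 2 with a filter at the 60th percentile (which leaves 8 members) and 3 with only the 4 arrays compared. Without either tAPX array it fell, as did the number called over all probe sets. In flu against WT the number of members called was 1. It was 2 with the 60th percentile filter, with quantile normalization, with the replicate block and with only the 4 arrays. It rose without flu replicate 1, and without either flu tAPX array, where the number over all probe sets rose too. The mean of both responses called 8, with 4 under the 60th percentile filter. It called the fewest members without tAPX replicate 1, where fewer of all probe sets were called too. For tAPX against WT, flu tAPX against flu and the difference between the responses, the count was 0 in every alternative run. CYP71B22 kept its call in both responses in every alternative run, at 0.91 in flu tAPX against tAPX under poly-A scaling. It passed the main filter only through arrays with the mutation, so its place among the members is not independent of its response. In flu tAPX against tAPX, CYP71B23 lost its call without tAPX replicate 2 (0.55) or flu tAPX replicate 2 (0.49), CYP78A9 without either tAPX array, CYP84A4 without tAPX replicate 1 (1.13), and CYP71B35 without either tAPX array, flu tAPX replicate 2 or flu replicate 2 or with no filter. CYP71B23 and CYP78A9 also lost it with only the 4 arrays compared. CYP71B26 (-1.05) and CYP71B36 (-0.98) gained a call there without flu tAPX replicate 2. The second member called in flu against WT was CYP84A4 under quantile normalization and CYP71B28 under the block, the 60th percentile filter and the 4 arrays alone, and also without flu replicate 1. In flu tAPX against tAPX, scaling on poly-A controls lost the calls of CYP71B23 (0.07, adjusted p 0.826) and CYP84A4 (0.73, adjusted p 0.0801). It added CYP71B26, CYP71B28, CYP71B34 and CYP71B36 as lower in that comparison. Under poly-A scaling the uncalled changes there of CYP71B24, CYP71B27, CYP71B5 and CYP71B6 turned to -0.41, -0.34, -0.60 and -0.39. In the mean response CYP71B24 and CYP71B6 turned to -0.082 and -0.078. Leaving out 1 array turned the sign of uncalled changes: CYP71B27 ranged from -0.489 to 1.099 and CYP71B29 from -1.14 to 0.21 in flu tAPX against tAPX, where CYP71B5 ranged from -0.19 to 0.29; in flu against WT, CYP71B27 ranged from -0.13 to 1.13 and CYP71B29 from -0.864 to 0.093. The neighbour differences CYP71B28 minus CYP71B29 and CYP71B35 minus CYP71B36 ranged from -0.41 to 0.01 and from -0.22 to 0.15. Over all probe sets, flu tAPX against tAPX gave 5014 calls and 8956 under poly-A scaling, and flu against WT 3570 and 2298. Poly-A scaling gave 15 calls, against 1, in flu tAPX against flu and 387, against 0, for the difference between the responses. The causes were not tested. The labels do not say whether equal replicate numbers share experiments across lines. The correlation of replicate differences between lines ran from -0.08 to 0.35, the highest being between flu tAPX and flu. Whether the arrays are paired is therefore not settled, and the replicate block is given only as an alternative.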
